A study of Mus musculus with 28 samples.

Results

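The T cell receptor (TCR) complex and its proximal signalling machinery were examined in bulk RNA-seq libraries of regulatory T (Treg) cells through 33 genes, which were taken by symbol from a table of 53801 features. They were grouped by function and comprise 4 CD3 chains, 5 co-receptor and surface molecules, 5 kinases, 8 adaptors and exchange factors, 1 phospholipase, the 2 partners *Bcl10* and *Malt1*, 3 NFAT factors and 5 negative regulators. All 33 symbols were found, each in a single row. Mice with forebrain tumors of CT2A, a murine glioblastoma (GBM) cell line, were given 4 doses (250 µg per mouse, 3 days apart) of IgG2a, the isotype control, or of αPD1 + αGITR, in which an antibody that blocks the inhibitory receptor PD1 is combined with an agonistic antibody against the co-stimulatory receptor GITR. Spleens and tumors were taken 2 days after the final dose, and cells that were TCR+, CD4+, CD25hi and CD127lo, with CD8+ T cells gated out, were sorted as Treg cells, with each of the spleens, and each of the tumors, from a different mouse per the submitters. After IgG2a, values were available for 7 spleens and 5 tumors, and after αPD1 + αGITR for 8 spleens and 7 tumors, each a library of its own, named below by its label (tumor_79_a is a GBM library). All 4 groups therefore come from mice that carried a tumor of the same line. The paper's legend for the RNA-seq gives 5 animals after IgG2a and 7 after αPD1 + αGITR, fewer than the spleens used here. Some spleens share a number in their label, such as spleen_79_a to spleen_79_d, and these numbers are not explained. The main tests treat every library as independent. The study worked with C57BL/6 mice of both sexes, and the age and sex of the mice behind single libraries are not given in the sources used here.

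The TCR itself binds peptide on MHC but has no signalling tail of its own, and the CD3 chains that surround it carry the motifs that are phosphorylated on engagement. The kinase Lck, brought in by the co-receptor Cd4, phosphorylates these motifs, Zap70 docks on them and phosphorylates the scaffold Lat, and from Lat the signal branches through phospholipase C to calcium and NFAT, through Rasgrp1 to Ras, and through protein kinase C theta, Bcl10 and Malt1 to NF-κB. Phosphatases, inhibitory kinases and ubiquitin ligases limit each step. Treg cells need TCR signals for their development and for their suppressive function, and high TCR signal strength is a known feature of the lineage.

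Levels are given in TPM, a unit of transcript abundance that is scaled by transcript length and to the same total in every library, so that genes can be compared within a library. The read depth behind them is unknown, and the spread between libraries is the only measure of precision. In a bulk sample, fewer cells of a type and less RNA per cell cannot be told apart. The sorted identity was checked on 5 Treg cell markers, all of which had a mean above 10 TPM in every group. Their sum differed between tissues, with medians of 273 and 316 TPM in spleen and 746 and 1258 TPM in GBM after IgG2a and αPD1 + αGITR. *Foxp3* ranged from 21.5 to 440.4 TPM over the 27 libraries, *Cd8a* did not exceed 6.15 TPM, *Cd8b1* reached 36.3 TPM in tumor_70_b and 25.2 TPM in spleen_74_a, and the 6 B cell markers summed to at most 65.6 TPM. The 11 macrophage and microglia markers summed to 5904 TPM in tumor_79_a (IgG2a) and to 2238 TPM in tumor_73_a (αPD1 + αGITR), against medians of 153 and 117 TPM in their groups. The 1 erythroid gene in the table had medians of 13.8 and 44.4 TPM in spleen (up to 284 TPM) and of 0 and 0.84 TPM in GBM, and the 6 neuron and glia markers summed to medians of 7.24 and 18.3 TPM in spleen and of 52.0 and 24.4 TPM in GBM, in the same order of treatments. The part of these shifts in the comparisons of tissues was not tested.

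The ribosomal RNA feature *CT010467.1* was the most abundant in 22 of the 27 libraries. In the other 5 the most abundant was *Gm26870*, a predicted repeat-derived gene. These were spleen_79_a and spleen_79_d after IgG2a, spleen_70_a and spleen_72_b after αPD1 + αGITR, and tumor_369_a after IgG2a. *Gm26870* held 27.1% to 33.1% of all TPM in the 4 splenic ones and 17.2% in the GBM one. That GBM share is the median of its group, below tumor_76_a (17.9%) and tumor_78_a (18.4%). The ribosomal RNA share of tumor_369_a, 13.9%, was the lowest of its group. Leaving tumor_369_a out therefore does not single out a high *Gm26870* share in GBM. The median level of the 33 genes was 12.4, 16.4, 29.8 and 17.6 TPM in these 4 splenic libraries, while it lay between 35.4 and 99.9 TPM in the other 11 spleens. It was 62.5 TPM in the GBM library, inside the range of 46.1 to 79.2 TPM of its group. The group medians of the *Gm26870* share were 9.93% and 12.4% in spleen and 17.2% and 2.24% in GBM, after IgG2a and αPD1 + αGITR respectively, so this share differed between tissues and between treatments, and its part in the comparisons was not tested beyond leaving these libraries out.

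**Figure D1:**
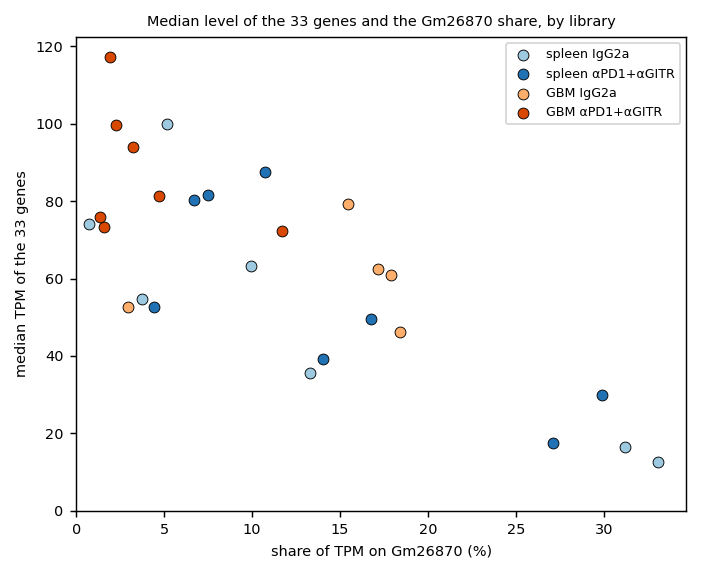
Median TPM of the 33 genes (vertical axis) against the percent of all TPM on Gm26870 (horizontal axis) in each of the 27 libraries, 1 point a library, colored by group. The 4 splenic libraries at 27.1% to 33.1% have the lowest medians, from 12.4 to 29.8 TPM.

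Across the 33 genes, GBM Treg cells after αPD1 + αGITR had the highest mean of the 4 groups for 27. The exceptions were *Lcp2*, *Ptpn6* and *Sh2d1a*, highest in GBM after IgG2a, *Prkcq* and *Ubash3a*, highest in spleen after IgG2a, and *Grap2*, highest in spleen after αPD1 + αGITR. The matching share over all features was not counted. Of all genes tested, 77.6% had a log2 fold change above 0 in this group against treated spleen. Against GBM after IgG2a it was 71.6%, so the shift was not particular to the 33 genes. GBM Treg cells after αPD1 + αGITR also had the smallest spread for 25 of the 33 on the log2(TPM + 1) scale. In groups with a mean above 10 TPM, the median SD over the genes was 0.52 in GBM after αPD1 + αGITR, 0.89 in GBM after IgG2a, and 1.29 and 1.30 in the splenic groups, where the medians over all such genes of the table were 0.75, 1.74, 1.53 and 1.53. The most abundant of the 33, by the mean of the 4 group means, were *Lck* at 351 TPM and *Cd3e* at 305 TPM, and the least abundant was *Themis*, an adaptor best known from thymocyte selection, at 4.74 TPM. *Themis* had group means from 3.46 to 5.99 TPM and did not reach the mean of 10 TPM in 1 group that was required for testing, which leaves 32 genes tested in each comparison.

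Of these 32, 7 passed the adjusted threshold of 0.05 when GBM and splenic Treg cells were compared after αPD1 + αGITR (limma on log2(TPM + 1), Benjamini-Hochberg adjustment over all genes tested), and all 7 were higher in GBM. They were the CD3 chains *Cd3e* and *Cd247*, the adhesion receptor *Cd2*, the kinase *Lck*, the protease *Malt1*, and the negative regulators *Ptpn22* and *Sla*. The summed level of 6 housekeeping genes also differed between these groups, at 1085 to 10979.8 TPM (median 4591) in treated spleen and 8805 to 19346 TPM (median 13750.3) in treated GBM. Its part in the count was tested only through the other scalings given further on. The share of 21.9% stands beside a background of 17.5% of the 7506 genes tested, or 15.8% when only higher genes are counted. At an unadjusted p under 0.05 the genes numbered 12 of 32, or 37.5%, against a background of 40.3%. The median log2 fold change of the 32 was 0.95 and that over all genes tested was 0.95 as well. The groups did not overlap for 3 genes, *Cd2*, *Ptpn22* and *Sla*, which is 9.38% against a background of 3%. When each of the 15 libraries was left out in turn, between 3 and 8 genes passed. *Cd2*, *Ptpn22* and *Sla* passed every time. *Malt1* was lost without spleen_70_a, spleen_72_b, tumor_70_a, tumor_70_b, tumor_72_a or tumor_80_a, with an adjusted p of at most 0.0714. *Cd3e* and *Cd247* passed only without spleen_70_c, spleen_73_a, spleen_74_a or spleen_80_a, with an adjusted p of at most 0.0925 and 0.0821 without the others. *Lck* passed only without these 4 spleens or tumor_73_b, with at most 0.0998.

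In the other comparisons no member passed the adjusted threshold in limma. Between GBM and spleen after IgG2a, 0 of 32 passed (background 0.569%), 4 had an unadjusted p under 0.05 (12.5%, background 9.93%) and 0 had groups that did not overlap (background 1.48%). Between treated and control GBM Treg cells, 0 of 32 passed (background 0%), 7 had an unadjusted p under 0.05 (21.9%, background 22.3%) and 1 did not overlap (3.12%, background 2.19%). Between treated and control splenic Treg cells the 3 counts were 0, 0 and 0, with backgrounds of 0%, 2.53% and 0.0151%. For the interaction, which asks whether the treatment effect differed between tissues, 0 of 32 passed (background 0%) and 1 had an unadjusted p under 0.05 (3.12%, background 12.2%). None of these shares was far above its background.

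**Figure D2:**
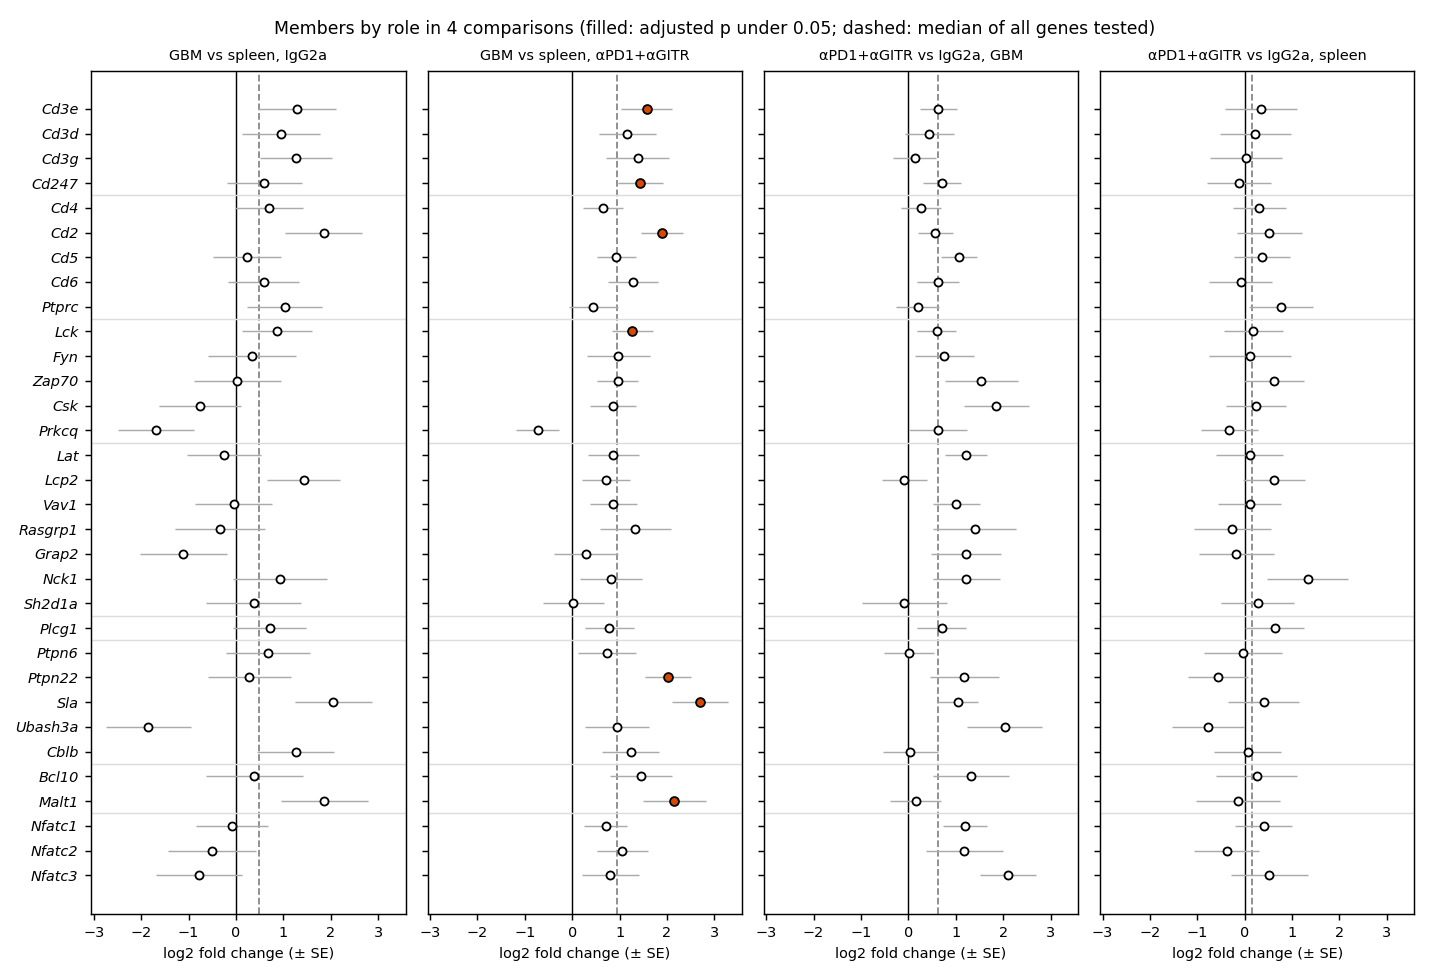
Log2 fold change (horizontal axis, ± standard error) of the 32 genes tested, grouped by role, in the 4 comparisons of groups. Filled points have an adjusted p under 0.05, and the dashed line is the median over all genes tested, at 0.48, 0.95, 0.62 and 0.15 from left to right. The 7 filled points all lie in the comparison of tissues after αPD1 + αGITR.

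The CD3 chains form the signalling part of the receptor: *Cd3e*, *Cd3d* and *Cd3g* pair into dimers that flank the TCR chains, and *Cd247* encodes the zeta chain with most of the phosphorylation motifs. Their genes were located in GRCm38, the assembly the authors call mm10. *Cd3g* (chr9:44969572-44980431, minus strand), *Cd3d* (chr9:44981786-44987339, plus strand) and *Cd3e* (chr9:44998740-45009627, minus strand) are neighbours on chromosome 9, and the annotated starts of *Cd3g* and *Cd3d* point away from each other over 1355 bases. *Cd247* lies apart (chr1:165788681-165877277, plus strand). The 250 bases before each start are shown because these genes encode chains of a single complex. They come from RefSeq (GRCm38.p6), which matched 26 of the 33 genes, and cover chr9:44980432-44980681 (minus strand) for *Cd3g*, chr9:44981536-44981785 (plus strand) for *Cd3d*, chr9:45009612-45009861 (minus strand) for *Cd3e* and chr1:165788431-165788680 (plus strand) for *Cd247*, each written 5′ to 3′ on the strand of its gene. Capitals mark the letters GGAAGT (a core of ETS factor sites), TGNGGT (a core of RUNX sites) and CAGNTG (an E-box), searched on both strands. No 2 of the capital runs overlap.
Cd3g: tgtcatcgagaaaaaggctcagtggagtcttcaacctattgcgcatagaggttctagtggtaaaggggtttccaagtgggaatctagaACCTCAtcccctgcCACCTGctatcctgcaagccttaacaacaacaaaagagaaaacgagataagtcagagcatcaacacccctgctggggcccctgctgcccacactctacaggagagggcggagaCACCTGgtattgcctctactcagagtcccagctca
Cd3d: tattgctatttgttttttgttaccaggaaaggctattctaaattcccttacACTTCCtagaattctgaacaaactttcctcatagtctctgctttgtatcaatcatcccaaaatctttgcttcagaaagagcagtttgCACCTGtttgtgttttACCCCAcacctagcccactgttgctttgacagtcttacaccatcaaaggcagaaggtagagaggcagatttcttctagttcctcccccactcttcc
Cd3e: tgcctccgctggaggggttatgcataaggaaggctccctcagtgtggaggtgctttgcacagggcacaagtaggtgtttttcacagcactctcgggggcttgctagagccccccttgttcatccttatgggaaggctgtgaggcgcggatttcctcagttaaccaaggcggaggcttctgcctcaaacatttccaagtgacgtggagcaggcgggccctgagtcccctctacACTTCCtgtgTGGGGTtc
Cd247: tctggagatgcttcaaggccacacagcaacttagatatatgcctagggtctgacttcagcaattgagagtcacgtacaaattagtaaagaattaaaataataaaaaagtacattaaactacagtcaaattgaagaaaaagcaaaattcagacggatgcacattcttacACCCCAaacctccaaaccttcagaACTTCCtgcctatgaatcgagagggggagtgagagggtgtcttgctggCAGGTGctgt

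In these windows GGAAGT was found before *Cd3d*, *Cd3e* and *Cd247*, TGNGGT before all 4 genes, and CAGNTG before *Cd3g*, *Cd3d* and *Cd247*. Over all 32851 promoters of the table, windows of the same length held GGAAGT in 19.7%, TGNGGT in 40.1% and CAGNTG in 44.8%. The letters GGAAAA, a core of NFAT sites present in 20.4% of all windows, were also searched and were in none of the 4. Over the 36 windows of the matched genes, 16 held GGAAGT, 15 TGNGGT, 18 CAGNTG and 6 GGAAAA.

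*Cd3e* was listed at 16.4 to 650.0 TPM (median 190.4) in spleen after IgG2a and at 41.9 to 656 TPM (median 160.4) in spleen after αPD1 + αGITR. In GBM it was listed at 135, 249, 271, 456 and 501 TPM after IgG2a, and at 292 to 684 TPM (median 398) after αPD1 + αGITR. The splenic libraries reached down to levels that no GBM library had, while their highest values lay within the GBM range. After αPD1 + αGITR the mean was 469 ± 150.1 TPM (SD, n = 7) in tumors against 222 ± 206 TPM (SD, n = 8) in spleens, and the log2 fold change was 1.57 (standard error 0.54, limma adjusted p = 0.0469, exact permutation p = 0.0155). Of the 7 GBM libraries, 2 exceeded all treated spleens. Without the treated spleens led by *Gm26870* the log2 fold change was 0.99 (limma adjusted p = 0.164).

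*Cd247* was listed at 7.91 to 194 TPM (median 58.0) and 22.6 to 153 TPM (median 40.7) in spleen after IgG2a and αPD1 + αGITR. In GBM it was listed at 56.9, 64.8, 81.1, 99.7 and 111 TPM after IgG2a and at 81.3 to 185 TPM (median 137) after αPD1 + αGITR. The treated GBM libraries overlapped with the upper 2 treated spleens. Between tissues after αPD1 + αGITR, the log2 fold change was 1.44 (standard error 0.47, limma adjusted p = 0.0394, exact permutation p = 0.00404). Without the treated spleens led by *Gm26870* it was 1.13 (limma adjusted p = 0.111). Of the annotated exon bases of *Cd247*, 60.3% also lie in exons of other genes, mostly of *Pou2f1* on the opposite strand. The Smart-Seq2 protocol does not mark strand, so reads there cannot be told apart. *Pou2f1* had a mean of 13.9 ± 9.64 TPM (SD, n = 7) in treated GBM and 16.5 ± 21.3 TPM (SD, n = 8) in treated spleen.

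*Cd3d* was the lowest of these chains, at 5.12 to 121 TPM (median 26.6) and 6.60 to 168 TPM (median 25.5) in the splenic groups, at 18.75, 34.6, 50.01, 58.0 and 103 TPM in GBM after IgG2a, and at 33.6 to 108 TPM (median 65.5) in GBM after αPD1 + αGITR. *Cd3g* was listed at 17.2 to 193 TPM (median 80.3) and 8.52 to 251 TPM (median 117) in the splenic groups, at 98.0, 111, 166, 225 and 308 TPM in GBM after IgG2a, and at 115 to 422 TPM (median 131) in GBM after αPD1 + αGITR. Both genes overlapped between all groups. Their log2 fold changes between tissues after αPD1 + αGITR, 1.16 for *Cd3d* and 1.38 for *Cd3g*, did not pass the threshold. Within libraries, where scaling plays no part, the order of the chains was nearly fixed: *Cd3e* was above *Cd3d* in 27 of 27 libraries, *Cd3g* above *Cd3d* in 27 of 27, *Cd3e* above *Cd3g* in 25 of 27 and *Cd3e* above *Cd247* in 26 of 27. The order of *Cd3g* and *Cd247* varied, with *Cd3g* higher in 18 of 27.

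**Figure D3:**
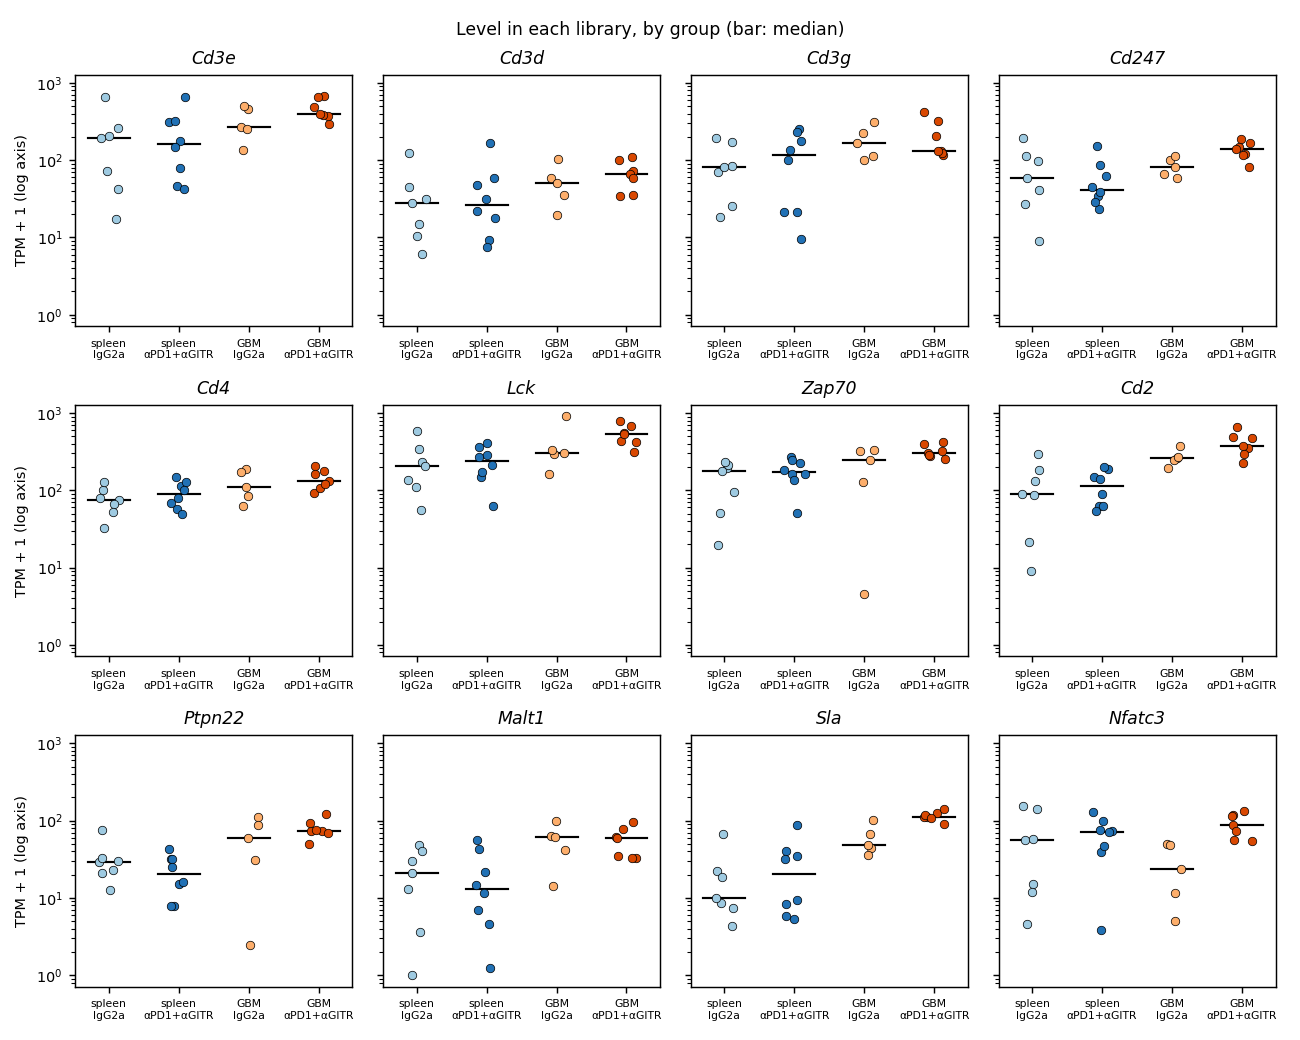
TPM + 1 (log axis) of 12 of the 33 genes in each library, 1 point a library and a bar at the median, by group. For Cd2, Ptpn22 and Sla the 7 GBM libraries after αPD1 + αGITR sit above all 8 treated spleens, and for Nfatc3 above all 5 GBM libraries after IgG2a.

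Among the surface molecules, *Cd4*, the co-receptor for MHC class II and a marker of the sort, had the smallest spread of the 32 genes in both splenic groups. It was listed at 31.4 to 129 TPM (median 73.1) and 49.0 to 148 TPM (median 89.5) in spleen after IgG2a and αPD1 + αGITR. In GBM it was listed at 62.5, 82.4, 109.9, 174 and 190.2 TPM after IgG2a and at 92.6 to 204 TPM (median 131) after αPD1 + αGITR. The 4 groups overlapped, and the log2 fold change between tissues was 0.70 after IgG2a and 0.66 after αPD1 + αGITR, neither past the threshold.

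*Cd2*, an adhesion receptor that binds CD48 in mice and strengthens TCR signalling, was higher in GBM. It was listed at 7.97 to 294 TPM (median 89.9) and 52.3 to 197 TPM (median 113) in spleen after IgG2a and αPD1 + αGITR, and at 196, 243, 259, 271 and 368.95 TPM in GBM after IgG2a and 222 to 663 TPM (median 379) in GBM after αPD1 + αGITR. The treated GBM libraries all lay above the treated spleens, whereas after IgG2a 1 of 5 GBM libraries lay above every spleen. The log2 fold change after αPD1 + αGITR was 1.90 (standard error 0.44, limma adjusted p = 0.00816, exact permutation p = 0.000311), from means of 411 ± 146 and 116 ± 58.0 TPM (SD, n = 7 and 8). Without any 1 of the 15 libraries it stayed between 1.76 and 2.03 and past the threshold. After IgG2a it was 1.85 (standard error 0.81, limma adjusted p = 0.428, exact permutation p = 0.0379), which did not pass. Without the libraries led by *Gm26870* the values were 1.61 (adjusted p = 0.0202) after αPD1 + αGITR and 0.77 (adjusted p = 0.551) after IgG2a.

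*Cd5* and *Cd6*, scavenger-type receptors that dampen TCR signals, and *Ptprc*, the CD45 phosphatase that keeps Lck active, did not pass in any comparison. *Cd5* had means of 159, 186, 166 and 327 TPM in the order spleen IgG2a, spleen αPD1 + αGITR, GBM IgG2a, GBM αPD1 + αGITR. In the same order *Cd6* had means of 123, 121, 174 and 239.8 TPM and *Ptprc* of 60.3, 90.1, 92.1 and 99.1 TPM. *Cd5* is usually taken as a gauge of TCR signal strength. In GBM it was listed at 90.55 to 291 TPM after IgG2a and 260.4 to 432 TPM after αPD1 + αGITR, a log2 fold change of 1.07 (standard error 0.38, limma adjusted p = 0.142, exact permutation p = 0.00379), with 5 of 7 treated libraries above all 5 controls.

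Of the kinases, *Lck* was the most abundant of the 33 genes. It was listed at 54.0 to 577 TPM (median 202) and 62.1 to 411 TPM (median 241) in spleen after IgG2a and αPD1 + αGITR, and at 162, 295, 302, 329 and 910.3 TPM in GBM after IgG2a and 315 to 783 TPM (median 541) in GBM after αPD1 + αGITR. Of the 7 treated GBM libraries, 6 lay above every treated spleen. Between treated tissues, the log2 fold change was 1.27 (standard error 0.44, limma adjusted p = 0.0484, exact permutation p = 0.00202), from means of 530.0 ± 159.6 and 239.6 ± 114 TPM (SD, n = 7 and 8). Without the treated spleens led by *Gm26870* it was 0.90 (limma adjusted p = 0.123). *Lck* was above *Fyn*, the other Src-family kinase of T cells, in 27 of 27 libraries, above *Csk*, which phosphorylates Lck on its inhibitory tail, in 27 of 27, and above *Zap70* in 23 of 27.

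*Zap70* was listed at 18.8 to 230.3 TPM (median 176) and 49.6 to 269 TPM (median 174) in spleen after IgG2a and αPD1 + αGITR. In GBM it was listed at 3.60, 129, 247, 318 and 330.0 TPM after IgG2a and at 256 to 427 TPM (median 299) after αPD1 + αGITR. The 3.60 TPM stand in tumor_369_a, which had the fewest genes above 1 TPM of all 27 (7702) and in which *Csk*, *Ptpn22* and *Nfatc2* were also near 0, at 1.94, 1.45 and 0.49 TPM, while *Lck* was the highest of its group. That library also carried 277 TPM of *Il7r*, the CD127 gene selected against in the sort. Between tissues *Zap70* had a log2 fold change of 0.03 after IgG2a, which was 1.18 without tumor_369_a, and 0.96 after αPD1 + αGITR, none past the threshold. *Fyn* had group means between 10.04 and 21.4 TPM, and *Csk* had means of 60.5, 65.2, 44.4 and 106 TPM in the order given above.

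*Prkcq*, which encodes protein kinase C theta, the isoform recruited to the T cell synapse, was the only gene of the 32 with a log2 fold change below 0 between tissues after αPD1 + αGITR. It was listed at 38.0 to 350.0 TPM (median 111) and 39.15 to 128 TPM (median 86.0) in spleen after IgG2a and αPD1 + αGITR, and at 4.60, 40.5, 42.6, 51.5 and 64.0 TPM in GBM after IgG2a and 24.3 to 101 TPM (median 50.8) in GBM after αPD1 + αGITR. The groups overlapped in both comparisons. The log2 fold change was -0.73 after αPD1 + αGITR (standard error 0.46, limma adjusted p = 0.22, exact permutation p = 0.0429) and -1.68 after IgG2a (standard error 0.80, limma adjusted p = 0.486, exact permutation p = 0.0404). After αPD1 + αGITR it passed the threshold under 2 other scalings, at -1.34 with quantile normalization (adjusted p = 0.0383) and -1.56 with TMM-type factors (adjusted p = 0.0373), both of which align the libraries on the genes tested. The lowest value, 4.60 TPM, belongs to tumor_79_a with the high macrophage and microglia markers, and without it the IgG2a difference was -1.05. Without the libraries led by *Gm26870* that difference was -2.50 (adjusted p = 0.136), and the one after αPD1 + αGITR was -0.65 (adjusted p = 0.347).

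Downstream of Zap70, the adaptors and exchange factors gave no call in any comparison. *Lat*, the membrane scaffold, had means of 189, 202, 125 and 284 TPM in the order spleen IgG2a, spleen αPD1 + αGITR, GBM IgG2a, GBM αPD1 + αGITR. It was above *Lcp2*, the cytosolic scaffold it pairs with, in 26 of 27 libraries and above *Grap2*, the adaptor that links them, in 27 of 27. *Lcp2* had means of 33.6, 49.9, 84.4 and 68.2 TPM in that order. *Vav1*, an exchange factor for Rac, had means of 26.9 to 51.6 TPM, *Rasgrp1*, an exchange factor for Ras, of 36.7 to 76.2 TPM, and *Plcg1*, the phospholipase that makes the second messengers for calcium and protein kinase C, of 44.4 to 116 TPM. *Nck1*, which links the receptor to actin, lay between 11.9 and 31.4 TPM, *Grap2* between 7.23 and 13.2 TPM and *Sh2d1a*, the SAP adaptor of SLAM receptors, between 11.6 and 32.9 TPM. The highest *Sh2d1a* mean rested on tumor_369_a at 131 TPM, with the other 4 between 0 and 15.4 TPM, while 26.6% of its exon bases are shared with *Tenm1* on the opposite strand, which did not exceed 2.69 TPM.

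*Malt1* encodes a protease on the path from protein kinase C theta to NF-κB, and *Bcl10* its partner. *Malt1* (chr18:65430938-65479067, plus strand) was listed at 0 to 47.6 TPM (median 19.8) and 0.22 to 55.3 TPM (median 12.2) in spleen after IgG2a and αPD1 + αGITR, and at 13.1, 40.6, 60.8, 62.5 and 96.3 TPM in GBM after IgG2a and 32.05 to 93.85 TPM (median 58.7) in GBM after αPD1 + αGITR. Of the 7 treated GBM libraries, 4 lay above every treated spleen. After αPD1 + αGITR the log2 fold change was 2.16 (standard error 0.67, limma adjusted p = 0.0328, exact permutation p = 0.00824). It was 1.39 without the 2 spleens led by *Gm26870* (adjusted p = 0.116). *Bcl10* had means of 25.7, 28.3, 37.3 and 52.6 TPM in the order given above and a log2 fold change of 1.46 in the same comparison, which did not pass. Without single libraries that value ran from 0.95 to 1.79 and passed in 1 of 15 fits.

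The NFAT factors enter the nucleus when calcium activates calcineurin, and *Nfatc2* is known for its work with Foxp3 in Treg cells. None passed the threshold. In spleen the means of *Nfatc1*, *Nfatc2* and *Nfatc3* were 60.3, 71.4 and 61.8 TPM after IgG2a and 68.3, 56.03 and 66.1 TPM after αPD1 + αGITR. In GBM all 3 had higher means after αPD1 + αGITR, at 113, 91.7 and 89.9 TPM for *Nfatc1*, *Nfatc2* and *Nfatc3* against 48.1, 72.96 and 26.4 TPM after IgG2a. For *Nfatc2* this rested on tumor_369_a at 0.49 TPM: the log2 fold change was 1.18 with that library and -0.01 without it. *Nfatc3* was listed at 4.02, 10.45, 22.9, 46.8 and 48.0 TPM in GBM after IgG2a and at 53.2 to 132 TPM (median 85.9) after αPD1 + αGITR, so the groups did not overlap. Its log2 fold change of 2.10 (standard error 0.59, limma adjusted p = 0.0977) was the largest of the 32 genes in that comparison on TPM as deposited, and the exact permutation p of 0.00126 is the smallest that 5 libraries against 7 allow. Without tumor_369_a it was 1.61, below *Ubash3a* at 2.19, and with quantile normalization 1.41, below *Ubash3a* at 1.62. In spleen the same gene spanned 3.65 to 154 TPM after IgG2a and 2.79 to 126 TPM after αPD1 + αGITR, with a log2 fold change of 0.52. That value ran from 0.04 to 1.05 when single libraries were left out. The difference between tissues in this effect was 1.58 (standard error 1.09, limma adjusted p = 0.584 for the interaction), so a treatment effect particular to GBM was not shown.

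The negative regulators held the largest difference. *Sla* encodes SLAP, an adaptor that directs the TCR zeta chain to degradation with the ubiquitin ligase Cbl, and lies on the minus strand (chr15:66780819-66831829). It was listed at 3.26 to 65.15 TPM (median 9.06) and 4.35 to 87.6 TPM (median 19.5) in spleen after IgG2a and αPD1 + αGITR, and at 34.7, 43.5, 47.4, 66.1 and 102 TPM in GBM after IgG2a and 90.2 to 140.0 TPM (median 111) in GBM after αPD1 + αGITR. The 7 treated GBM libraries lay close together, with the smallest SD of all 32 genes in that group (0.20 on the log2 scale), and above every treated spleen, the nearest being spleen_74_a at 87.6 TPM. The log2 fold change after αPD1 + αGITR was 2.70 (standard error 0.58, limma adjusted p = 0.00509, exact permutation p = 0.000311), from means of 114 ± 15.6 and 26.9 ± 28.3 TPM (SD, n = 7 and 8). Without any 1 of the 15 libraries it lay between 2.45 and 3.03 and stayed past the threshold. After IgG2a the log2 fold change was 2.06 (standard error 0.81, limma adjusted p = 0.358, exact permutation p = 0.0114), with 2 of 5 GBM libraries above every spleen.

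*Ptpn22* encodes a phosphatase that acts with Csk to switch off Lck and Zap70 (chr3:103859795-103912247, plus strand). It was listed at 11.4 to 73.5 TPM (median 28.1) and 6.90 to 42.2 TPM (median 19.4) in spleen after IgG2a and αPD1 + αGITR, and at 1.45, 29.6, 58.9, 87.8 and 111 TPM in GBM after IgG2a and 48.9 to 121 TPM (median 72.4) in GBM after αPD1 + αGITR. After αPD1 + αGITR the tissues did not overlap, while after IgG2a the GBM libraries reached both below and above the spleens, the lowest being tumor_369_a. The log2 fold change after αPD1 + αGITR was 2.02 (standard error 0.49, limma adjusted p = 0.0105, exact permutation p = 0.000311), and it stayed between 1.84 and 2.19 and past the threshold without any 1 of the 15 libraries. After IgG2a it was 0.29 and the interaction was 1.74 (standard error 0.95, limma adjusted p = 0.468). Without tumor_369_a these values were 1.23 and 0.79.

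*Ptpn6*, the phosphatase SHP1, *Cblb*, a ubiquitin ligase that restrains activation, and *Ubash3a*, a regulator that down-modulates the receptor, had no call. *Ptpn6* had means of 89.6, 67.2, 100.2 and 89.3 TPM and *Cblb* of 18.1, 19.4, 37.8 and 44.7 TPM in the order spleen IgG2a, spleen αPD1 + αGITR, GBM IgG2a, GBM αPD1 + αGITR. *Ubash3a* had means of 87.9, 71.4, 39.6 and 86.8 TPM in that order. It was the single gene of the 32 with an unadjusted p under 0.05 for the interaction, at 2.80 (standard error 1.15, limma adjusted p = 0.336), and the value was 1.70 without tumor_79_a, where it was listed at 0. Its log2 fold change between tissues was -1.85 after IgG2a (standard error 0.90, limma adjusted p = 0.498, exact permutation p = 0.0505), -0.75 there without tumor_79_a, and 0.95 after αPD1 + αGITR, where it was 0.33 without spleen_72_c.

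The 2 comparisons of tissues share no libraries. Over the 32 genes their log2 fold changes had a Pearson r of 0.60 and a Spearman rho of 0.42 (across genes, which are not independent replicates), against 0.32 and 0.28 over the 6199 genes tested in both. The sign agreed for 23 of the 32 genes (71.9%) and for 61.1% of all 6199. *Sla* and *Malt1* ranked first and second in both on TPM as deposited. With quantile normalization after IgG2a, *Malt1* (1.54) was above *Sla* (1.49). Without the libraries led by *Gm26870*, *Sla* remained first in both at 1.64 and 2.26, while *Malt1* was 0.65 after IgG2a and 1.39 after αPD1 + αGITR and not second. With all libraries *Prkcq* was last after αPD1 + αGITR and second to last, before *Ubash3a*, after IgG2a. The contrast of *Sla* and *Prkcq* also appeared as an order within libraries, which no scaling changes. *Prkcq* was above *Sla* in 14 of 15 splenic libraries and in 1 of 12 GBM libraries. This pair was picked after the values had been seen, and the counts are a description.

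**Figure D4:**
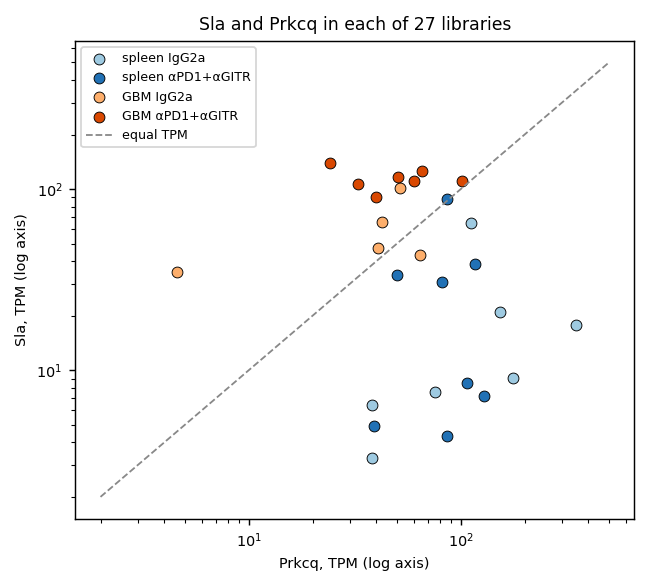
Sla (vertical log axis, TPM) against Prkcq (horizontal log axis, TPM) in each of the 27 libraries, colored by group, with a dashed line of equal TPM. Of the 12 GBM libraries 11 lie above the line, and of the 15 splenic libraries 14 lie below it.

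Within a tissue, no gene passed the threshold after αPD1 + αGITR. In GBM Treg cells, 30 of the 32 genes had a log2 fold change above 0, as did 71.6% of all genes tested. The median was 0.73 beside 0.62 over all genes tested. With quantile normalization 26 were above 0, beside 56.2% of all genes (median 0.46 beside 0.13). With TMM-type factors 18 were, beside 52.0% (median 0.06 beside 0.05). Besides *Nfatc3* and *Cd5*, the lowest p belonged to *Lat*, at 1.21 (standard error 0.44, limma adjusted p = 0.149, exact permutation p = 0.0152), and *Csk*, at 1.86 (standard error 0.68, limma adjusted p = 0.151, exact permutation p = 0.00758). *Csk* was listed at 1.94 TPM in tumor_369_a, and without that library its value was 1.04. In splenic Treg cells 22 of the 32 genes were above 0, beside 58.1% of all genes tested, with a median of 0.21 beside 0.15. This median ran from -0.07 without spleen_79_a to 0.46 without spleen_79_b. The lowest p there belonged to *Nck1*, at 1.33 (standard error 0.85, limma adjusted p = 1.00), *Ptprc* at 0.77 (standard error 0.68), *Ubash3a* at -0.77 (standard error 0.76) and *Plcg1* at 0.63 (standard error 0.63), with exact permutation p between 0.172 and 0.413. Single libraries moved these values: *Ubash3a* was -0.15 without spleen_72_c, *Plcg1* 0.33 without spleen_79_c and *Ptprc* 1.17 without spleen_79_b. For the interaction, the median over the 32 genes was 0.67 beside 0.45 over all. The former ran from 0.39 without spleen_79_b to 0.92 without spleen_79_d. With TMM-type factors the medians were 0.15 and 0.03. In order of p, *Csk* followed *Ubash3a* and *Ptpn22*, at 1.62 (standard error 0.94, limma adjusted p = 0.503), which was 0.81 without tumor_369_a.

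How far the tissue difference reaches depends on what the libraries are scaled to. After αPD1 + αGITR, 31 of the 32 genes had a log2 fold change above 0 on TPM as deposited, as did 77.6% of all genes tested. The median of all genes was 0.95 there. Under quantile normalization 28 of the 32 were above 0 and under TMM-type factors 23, beside 56.5% and 58.3% of all genes. With quantile normalization the median of all genes was 0.15 and that of the 32 genes 0.31, and the genes past the threshold were *Cd2*, *Ptpn22* and *Sla*, higher, and *Prkcq*, lower. With TMM-type factors the medians were 0.22 and 0.14, and *Cd2* and *Sla* were higher and *Prkcq* lower. *Sla* kept a log2 fold change of 1.95 and 1.91 under these scalings (adjusted p = 0.00955 and 0.0200), and *Cd2* of 1.36 and 1.06 (adjusted p = 0.0175 and 0.0380). When each library was instead centred on the mean of *Cd3e*, *Cd3d* and *Cd3g*, an alternative added after the data had been seen, none of the 32 genes passed. *Sla* stood at 1.33 (adjusted p = 0.104) and *Lck* at -0.10. The 3 reference genes are among the 32, and this centring fixes their mean change at 0 and lowers every gene equally. *Cd3e*, 1 of the 7 genes past the threshold, could thus hardly pass. In this setting 24 of the 32 genes were below 0, and their median was -0.42, as over all genes. Without the 2 treated spleens led by *Gm26870*, also added later, *Cd2*, *Ptpn22* and *Sla* passed, and the median of the 32 genes was 0.69 beside 0.66.

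**Figure D5:**
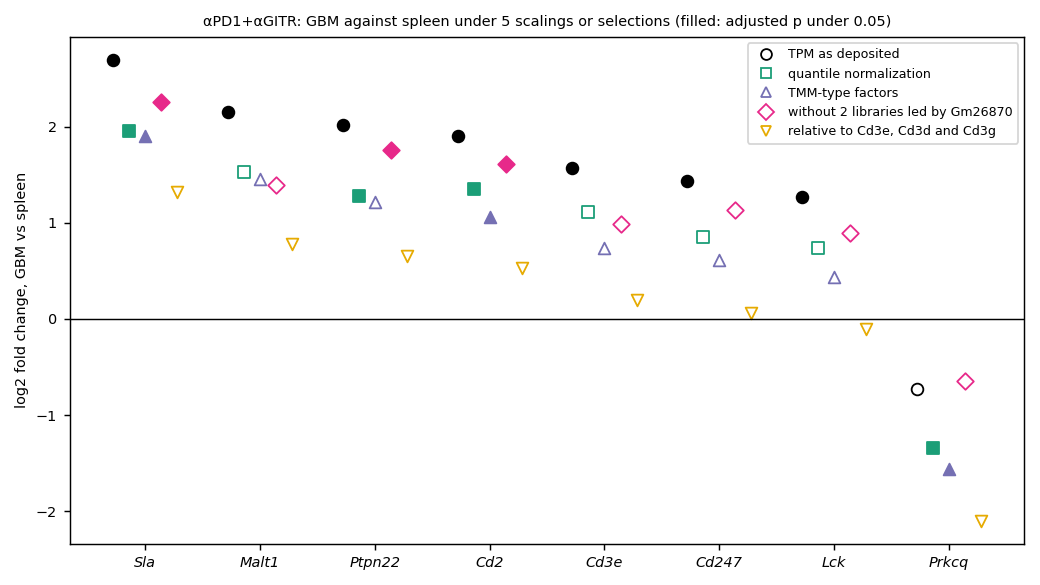
Log2 fold change (vertical axis) between GBM and splenic Treg cells after αPD1 + αGITR for the 7 genes past the threshold and for Prkcq, under 5 scalings or selections of libraries given by marker shape. Filled markers have an adjusted p under 0.05; Sla and Cd2 are filled in 4 of the 5.

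A wider list of 55 other genes of the pathway was read for comparison, among them the TCR constant regions, Tec kinases, calcium channel and calcineurin genes. After αPD1 + αGITR, 39 of these were tested between tissues and 9 passed (background 17.5%), all higher in GBM: *Trac*, the constant region of the TCR alpha chain, the adaptors *Grb2*, *Sh2d2a*, *Pag1*, *Sit1* and *Dok1*, the GTPase *Nras*, the calcium channel *Orai1*, and *Ubash3b*. The median log2 fold change of the 39 was 0.96 beside 0.95 over all genes tested. After IgG2a 0 of 39 passed, with 6 at an unadjusted p under 0.05 (background 9.93%) and a median of 0.06 beside 0.48. In GBM after treatment 0 of 42 passed, with 13 at an unadjusted p under 0.05 (background 22.3%) and a median of 0.70 beside 0.62, and in spleen 0 of 34 passed, with 0 at an unadjusted p under 0.05 and a median of -0.07 beside 0.15. Of 10 genes that TCR signals induce, *Nr4a3* and *Tnfrsf9* passed between tissues after αPD1 + αGITR (8 tested, 5 of them above 0) and *Tnfrsf9* after IgG2a (9 tested, 5 of them above 0), each higher in GBM. The background was 17.5% and 0.569%. The lowest log2 fold change in both belonged to *Egr2*, at -1.34 after αPD1 + αGITR and -1.80 after IgG2a, neither past the threshold. In GBM after treatment 0 of 9 passed, 8 were above 0 and 2 had an unadjusted p under 0.05, *Nfkbid* at 2.33 and *Egr2* at 1.66, with a median of 0.66 beside 0.62 over all genes tested. In spleen 0 of 8 passed and 4 were above 0. Over all genes tested, the shares above 0 between tissues were 77.6% after αPD1 + αGITR and 66.1% after IgG2a. For treatment they were 71.6% in GBM and 58.1% in spleen.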

How the data were processed

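Bulk Smart-Seq2 RNA-seq libraries of sorted Treg cells were described for 28 samples. The authors aligned reads to mm10 with Tophat (TopHat2 and bcl2fastq in the submitters' processing notes, no version given) and calculated TPM with RSEM. The deposited table lists TPM plus 1, and 1 was taken off each value. The treated spleen spleen_72_a was not analysed here and 1 column of values without a name was not used, which leaves 27 libraries. Groups follow the labels.

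Linear models with a variance trend (limma 3.58.1, R 4.3.3) were run on log2(TPM + 1), each on the groups it compares, and kept genes whose mean exceeded 10 TPM in 1 or more of them. Tests were two-sided, with Benjamini-Hochberg adjustment over all genes tested. For single genes, library labels were also exchanged in an exact permutation test (two-sided, on mean log2(TPM + 1)). The tests were tested on simulated data. Errors are SD unless called standard errors, and the number of reads behind a value is unknown.

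Members and lists were chosen with earlier results of these data known. A gene was left out of the wider pathway list and is not reported here. Every gene is given by group means or, where values per library are shown, by these or their range and median. Statistics are given for genes past the adjusted threshold in a test, filled up to 4 by the lowest p, and single values for those genes, the CD3 chains, *Cd4*, *Lck* and *Zap70*. *Nfatc3*, *Prkcq*, *Cd5* and *Sh2d1a* values beyond this rule were chosen after they had been seen. Positions come from GENCODE M21 (GRCm38), matched by symbol for all 33 genes, and promoters from RefSeq (GRCm38.p6). Exons of 10 of the 33 genes overlap with other genes. As alternatives, changed one at a time, the pseudocount was set to 0.1 or 10, the filter was dropped, or the fit used quantile normalization, TMM-type factors (30% and 5% trimmed) on the genes tested, library weights, all 4 groups in one fit, the number of genes above 1 TPM as a covariate, a replicate block for the label number, or all libraries but 1. The block in the interaction, scaling to the CD3 chains and leaving out libraries led by *Gm26870* were added after seeing the data.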

Additional observations from a re-analysis of the deposited data

Results flagged for a closer look

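In 10 of 132 sets (a gene in a group), the lowest library lay far from the others (Dixon's test at 95% on log2(TPM + 1), which by chance takes about 1 in 20, or 6.6 sets). The values are printed in TPM. In GBM after IgG2a, tumor_369_a was lowest for *Zap70* at 3.60 TPM and for *Nfatc2* at 0.49 TPM, where the next libraries had 129 and 80.7 TPM. In the same group, tumor_79_a was lowest for *Prkcq* at 4.60 TPM, for *Rasgrp1* at 0 TPM and for *Ubash3a* at 0 TPM, where the next had 40.5, 26.97 and 27.9 TPM. In spleen after αPD1 + αGITR, spleen_72_b was lowest for *Zap70* at 49.6 TPM, *Ptpn6* at 2.85 TPM and *Nfatc3* at 2.79 TPM, with the next at 136, 34.6 and 38.7 TPM. In that group *Nfatc2* stood at 5.09 TPM in spleen_70_c and *Ubash3a* at 1.24 TPM in spleen_72_c, with the next at 32.1 and 26.2 TPM. None of the 10 lay in spleen after IgG2a or GBM after αPD1 + αGITR. Among these libraries, tumor_369_a and spleen_72_b are led by *Gm26870*, and tumor_79_a carries the highest macrophage and microglia markers. Their part in these values was not tested.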

How the results depend on the processing

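Between GBM and spleen after αPD1 + αGITR, the count of 7 genes became 4 with a pseudocount of 0.1, 3 with no filter on low values, 4 with quantile normalization, 3 with TMM-type factors, 3 with all 4 groups in one fit and 4 with the number of detected genes as a covariate. It was 6 with a pseudocount of 10 and 9 with library weights, which added *Cd3g* and *Cblb*. Of the alternatives added after seeing the data, scaling to the CD3 chains gave 0. There 24 of the 32 genes, among them *Lck* at -0.10, were below 0. Leaving out the libraries led by *Gm26870* gave 3. Without single libraries the count ranged from 3 to 8. After IgG2a, library weights called 1 gene (*Sla*). In GBM, library weights called 3 genes after treatment (*Lat*, *Cd3e* and *Cd5*) and the covariate called 1 (*Nfatc3*). The cause of these shifts was not tested. In spleen and for the interaction every setting run gave 0.

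With a replicate block for the label number, 3 genes (*Cd2*, *Ptpn22* and *Sla*) passed between tissues after αPD1 + αGITR and 0 after IgG2a. Libraries of the 2 tissues with the same number deviated together with correlations of only -0.16 to 0.18, so the numbers were not taken as pairs. In the interaction, where the block was added after seeing the data, 0 genes passed. Treatments share no number, so no block could be fitted for the comparisons of treatments. Unknown depth leaves low values without a limit, and a value of 0 says only that a gene is listed at 0.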
